A study of Mus musculus with 38 samples.

Results

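Mice that lack hexokinase 2 (Hk2) in the intestinal epithelium were compared with their littermates after 3 days of dextran sodium sulfate (DSS), a polymer in the drinking water that injures the colonic epithelium and causes colitis. The comparison takes the 15 libraries of day 3 out of 38 in the series, chosen by day and genotype in their titles: 8 labelled KO and 7 labelled WT. Each is RNA of isolated intestinal epithelial cells per the sample labels, whereas the series text speaks of colon tissue. All mice were of the C57BL/6 strain. KO mice (Hk2 delta IEC) carried a floxed Hk2 allele and Cre recombinase under the Villin promoter, which is active in epithelial cells of the small and large intestine, so that other cells of the gut keep the gene. WT denotes Hk2fl/fl littermates, which carry the floxed alleles as well. Both groups were co-housed males aged 10 to 12 weeks that received 1.5% (w/v) DSS. The libraries are named by day, genotype and a number, as in d3_KO_345, which is taken here as that of the animal.

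Hexokinases phosphorylate glucose and so commit it to glycolysis, the pentose phosphate pathway or glycogen. Hexokinase 2 is the inducible form of the family, binds the outer mitochondrial membrane through the voltage-dependent anion channel, and is kept low in many resting tissues. In the colon, the epithelium that meets DSS consists mainly of absorptive colonocytes and mucus-producing goblet cells, with rarer tuft and enteroendocrine cells, all renewed from stem cells in the crypts.

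Total counts were 27.6 to 47.6 M (mega, of read pairs) in KO and 26.7 to 50.1 M in WT, and 19084 to 22381 genes had at least 1 count. Epithelial markers were high in every library, with Epcam at 1291 to 2011 CPM (counts scaled to library depth in the usual way, after TMM normalisation) in WT and 1329 to 1646 CPM in the 7 KO libraries other than d3_KO_345. Markers of other cells were low but present: the T cell gene Cd3e was at 0.444 to 4.69 CPM in WT and the B cell gene Cd79a at 0 to 0.256 CPM. In a mixed sample, fewer cells of a type and less RNA per cell cannot be told apart. The p-values below set a difference between groups against the spread between animals within them. Unless stated, they take no account of the ranges of animal numbers described below. Library d3_WT_381 stood apart. It had the lowest total, 41.7% of its counts were on the mitochondrial genome against at most 24.7% in any KO library, and its median correlation with the other libraries was 0.966, the lowest of the 15.

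The animal numbers in the titles fall into 3 ranges that were not balanced between genotypes. The first range, d3_KO_345 to d3_WT_353, held 4 KO and 4 WT libraries, the second, d3_WT_381 to d3_KO_392, held 4 KO libraries and 1 WT library, and the last held 2 WT libraries, d3_WT_486 and d3_WT_487. The labels do not say what the ranges stand for. With genotype held in the edgeR quasi-likelihood model and d3_KO_345 left out, 2651 of 15366 genes (17.3%) differed between the second and the first range at an adjusted p under 0.05, of which 1524 (9.92%) were higher and 1127 (7.33%) lower. Genotype differences are therefore also given with the number range as a term and within the first range, without d3_KO_345 unless stated. The second range has a single WT library, d3_WT_381, and the last range has no KO library, so that no test within them was possible.

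Hk2 itself was lower in 7 of the 8 KO libraries than the WT median, and far higher in the remaining one. Hk2 (ENSMUSG00000000628, chromosome 6, 82725025 to 82774454, minus strand, protein-coding) had 99.4 CPM in d3_WT_346, 149.5 in d3_WT_348, 226 in d3_WT_352, 227 in d3_WT_353, 149.9 in d3_WT_381, 182 in d3_WT_486 and 217 in d3_WT_487. It had 125 CPM in d3_KO_349, 129 in d3_KO_350, 101 in d3_KO_351, 70.4 in d3_KO_385, 94.1 in d3_KO_387, 131 in d3_KO_388 and 98.0 in d3_KO_392. The library labelled d3_KO_345 had 440 CPM, or 20913 counts, above every WT library. The WT library d3_WT_346 lay among these 7 KO libraries, and the other 6 WT libraries were above all of them. The level left in KO cells cannot be assigned to exons or to cells, as the counts are per gene and the sample is mixed.

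Without the library labelled d3_KO_345, Hk2 was 179 ± 48.3 CPM in WT (SD, n = 7) and 107 ± 22.4 CPM in KO (SD, n = 7). The log2 fold change was -0.74 (SE 0.18), with an edgeR p of 0.000841 and an adjusted p of 0.77 over 15366 genes. An exact two-sided permutation test of the mean log2 CPM gave p = 0.00641, where the smallest possible value was 0.000583. The library left out is the one whose Hk2 goes against its label, so these p-values describe the 14 libraries and are no independent test. With all 15 libraries, the log2 fold change was -0.27 (SE 0.33, edgeR adjusted p 0.802) and the exact permutation p was 0.197. With the number range as a term, the 14 libraries gave -0.58 (edgeR p 0.0126), and within the first range they gave -0.57 (edgeR p 0.0623).

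**Figure D1:**
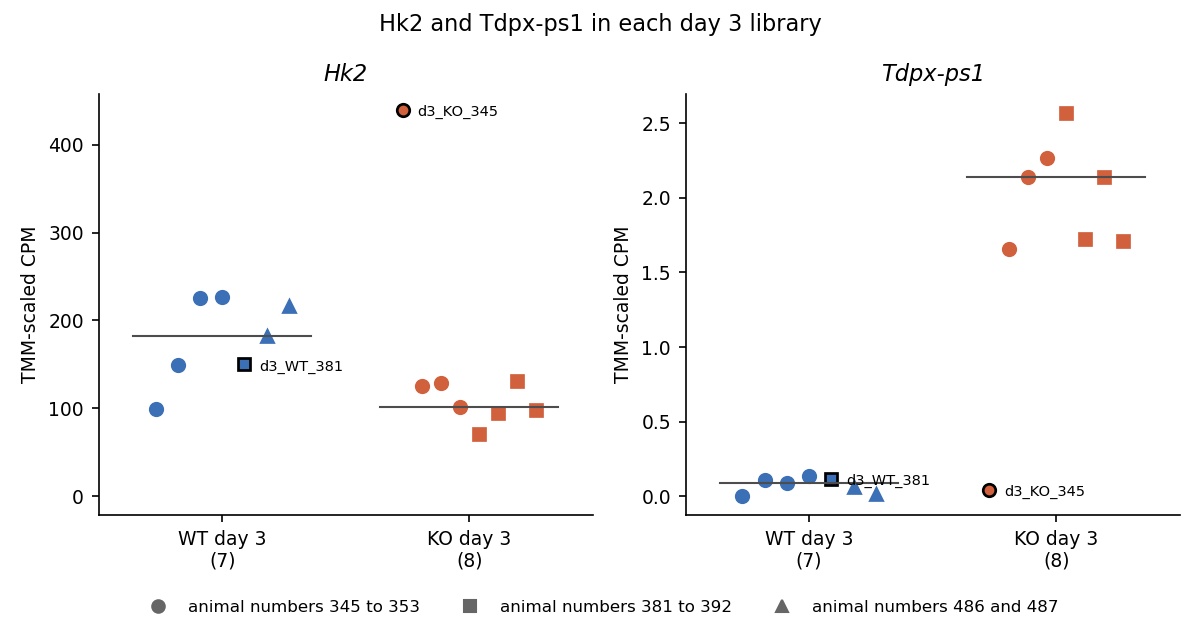
TMM-scaled CPM (vertical axis) of Hk2 (left) and the pseudogene Tdpx-ps1 (right) in each day 3 library, with WT in blue and KO in orange. Marker shapes show the range of animal numbers, the line is the group median without d3_KO_345, and outlined points are d3_KO_345 and d3_WT_381. The library labelled d3_KO_345 has the highest Hk2 (440 CPM), and its Tdpx-ps1 (0.0421 CPM) lies among the WT libraries.

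Across all genes, a single gene passed the adjusted threshold, in either set of libraries. With all 15 libraries, edgeR called 1 of 15461 genes (0.00647%), and 1218 genes (7.88%) had an unadjusted p under 0.05, 545 higher in KO (3.52%) and 673 lower (4.35%). Without the library labelled d3_KO_345, edgeR called 1 of 15366 genes (0.00651%), and 931 (6.06%) had an unadjusted p under 0.05, 396 higher (2.58%) and 535 lower (3.48%). The unadjusted count of the 14 libraries turned on single animals: it was 1599 without d3_WT_346, 517 without d3_WT_486, 550 without d3_KO_388 and 589 without d3_KO_387. With all 15 libraries it was 2045 without d3_WT_346, 685 without d3_WT_486 and 794 without d3_KO_388. The DESeq2 Wald test called 2 genes in each set, Tdpx-ps1 with Pnliprp2 (14 libraries) or with Tfpi (15). With the number range as a term, 2 of 15366 genes were called (0.013%), and within the first range 0 of 15726 (0%), beside 257 at an unadjusted p under 0.05 (1.63%).

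The called gene was Tdpx-ps1 (ENSMUSG00000082431, chromosome 1, 99790429 to 99791025, minus strand), a processed pseudogene, that is, a copy of a spliced transcript inserted in the genome. It lies within an intron of Cntnap5b, on the opposite strand. It is a near-copy of the coding sequence of Prdx2, a cytosolic peroxiredoxin that reduces hydrogen peroxide, from which it differs at 22 of 597 bases (96.3% identity). The first 240 bases of both, counted from the start codon of Prdx2, are printed 5′ to 3′ from the GENCODE M21 transcripts (GRCm38), because near-identical copies decide how far the counts of the pseudogene can be told from those of its parent. Capitals mark the 13 bases of this stretch at which the pair differs.

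Tdpx-ps1: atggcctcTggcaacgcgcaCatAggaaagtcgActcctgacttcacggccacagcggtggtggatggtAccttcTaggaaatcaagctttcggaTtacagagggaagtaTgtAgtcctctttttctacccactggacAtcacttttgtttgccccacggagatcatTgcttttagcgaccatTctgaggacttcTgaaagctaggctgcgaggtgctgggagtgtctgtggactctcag
Prdx2: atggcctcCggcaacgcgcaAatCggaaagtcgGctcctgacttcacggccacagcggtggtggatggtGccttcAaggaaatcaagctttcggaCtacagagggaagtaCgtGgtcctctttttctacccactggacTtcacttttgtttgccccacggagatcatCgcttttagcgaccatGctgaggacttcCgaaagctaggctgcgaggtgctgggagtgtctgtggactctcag

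Over the full length, the first reading frame of the pseudogene meets a stop at codon 26, against codon 199 in Prdx2. The longest run without a difference is 160 bases, and 140 of the 548 windows of 50 bases, the read length, are also found in Prdx2 (25.5%). Reads from those windows could have come from either gene, so the level of Tdpx-ps1 is uncertain in absolute terms. Exact counts were 0 to 6 in the 7 WT libraries and 49 to 109 in the 7 KO libraries other than d3_KO_345, which had 2.

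Tdpx-ps1 was higher in the 7 KO libraries other than d3_KO_345 than in WT. Its level was 0 to 0.137 CPM in WT (median 0.0915 CPM) and 1.66 to 2.57 CPM in the 7 KO libraries (median 2.14 CPM), so the groups did not overlap. A count of 3 corresponded to 0.0598 to 0.112 CPM before scaling, which puts most of the WT libraries near that floor. The library left out has Tdpx-ps1 at the WT level, against its label. The lack of overlap and the 14-library p-values therefore describe those libraries and are no independent test. The log2 fold change was 4.79 (SE 0.36, edgeR adjusted p 1.14e-05) over 14 libraries and 4.60 (SE 0.63, edgeR adjusted p 0.0235) over 15. With the number range as a term it was 4.49 (edgeR adjusted p 0.000234), and within the first range it was 4.55 (edgeR adjusted p 0.0885). The 15-library call was lost with the number range as a term (4.14, edgeR adjusted p 0.385) and when any 1 WT library was left out (edgeR adjusted p up to 0.123). Without any 1 KO library other than d3_KO_345, with a mean CPM of at least 1 as the filter, or within the first range, the gene was not tested when d3_KO_345 was included. Prdx2, shown for comparison, had 144 to 288 CPM in WT and 139 to 172 CPM in the 7 KO libraries, which overlapped. Its log2 fold change was -0.26 (edgeR p 0.0643), and d3_WT_381 was its highest library.

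The same pseudogene had 0 to 6 counts in the 7 WT libraries of day 7 and 61 to 126 counts in the 7 KO libraries, animals that the day 3 comparison did not use. Before DSS, on day 0, it had 0 to 12 counts in 4 WT libraries and 0 to 28 in 5 KO libraries, so the groups overlapped. Most of these libraries were shallower, with totals from 10.5 M (d0_KO_60) to 44.9 M (d0_WT_46). Counts were 28 in d0_KO_53, 13 in d0_KO_54 and 12 in d0_WT_43. They were 1, 0 and 0 in d0_KO_24, d0_KO_32 and d0_KO_60. Hk2 in those KO libraries was 57.8, 31.2 and 110.6 CPM, against 246.7 to 439.5 CPM in WT of day 0. In both genes, Hk2 and Tdpx-ps1, the library labelled d3_KO_345 did not have the values of the other day 3 KO libraries. Results are given without it first, and with it where it moves them.

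The 12 genes in each direction with the smallest p and a mean log2 CPM of at least 0 are described next (14 libraries). Apart from Tdpx-ps1 none of them passed the adjusted threshold, with an edgeR adjusted p of 0.77 for each, so they rank the genes and do not establish a change. After Tdpx-ps1 the highest fold was that of Pnliprp2, a pancreatic lipase-related enzyme. Pnliprp2 was at 0.660 to 1.28 CPM in WT (median 0.870 CPM) and at 1.25 to 7.58 CPM in KO (median 1.95 CPM), a log2 fold change of 1.78 (SE 0.40). The 2 KO libraries d3_KO_349 and d3_KO_350, at 6.36 and 7.58 CPM, were far above the rest, and the remaining KO libraries were at 1.25 to 2.75 CPM. DESeq2 called this gene in the 14 libraries (adjusted p 0.0394), and within the first range its log2 fold change was 2.37 (edgeR p 0.00211).

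A pair of further genes on the higher side belong to immune cell signalling. Fyb, an adaptor protein of T cells and myeloid cells, was at 2.15 to 3.46 CPM in WT and 2.55 to 8.06 CPM in KO (log2 fold change 0.95, SE 0.26). The 4 KO libraries of the second range held 6.56 to 8.06 CPM and the 3 KO libraries of the first range held 2.55 to 3.40 CPM. Within the first range the log2 fold change of Fyb was 0.08 (edgeR p 0.687), and Fyb was among the genes called between the ranges (log2 difference 1.02, edgeR adjusted p 0.00632). Itgb2l, an integrin beta subunit like that of leukocytes, was at 1.03 to 1.72 CPM in WT and 1.56 to 3.57 CPM in KO (log2 fold change 0.60, SE 0.18).

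Ciapin1, a factor of cytosolic iron-sulfur cluster assembly, was at 25.2 to 38.1 CPM in WT and 32.1 to 42.2 CPM in KO. Its log2 fold change was 0.33 (SE 0.09), and d3_WT_346, at 38.1 CPM, was the WT library that lay among the KO values. The exons of Ciapin1 overlap those of Coq9 on the opposite strand, which the unstranded counting does not separate. Recql5, a DNA helicase, was at 45.0 to 50.6 CPM in WT and 45.9 to 71.7 CPM in KO (log2 fold change 0.30), with 60.1 to 71.7 CPM in the 4 KO libraries of the second range and 47.0 CPM in d3_WT_381. Also on the higher side were Trio, a guanine nucleotide exchange factor, Macf1, which links actin and microtubules, Synj1, a phosphoinositide phosphatase of endocytosis, Sema6d, a transmembrane semaphorin, and the zinc finger gene Zfp692, at log2 fold changes of 0.22 to 0.38.

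On the lower side the smallest p was that of Tfpi, followed by Hk2. Tfpi encodes the inhibitor of the tissue factor pathway of coagulation. Tfpi was at 5.44 to 9.59 CPM in WT (median 5.95 CPM), at 2.90 to 5.83 CPM in KO (median 4.01 CPM) and at 3.79 CPM in the library labelled d3_KO_345, a log2 fold change of -0.72 (SE 0.17). With all 15 libraries it was -0.74, and the DESeq2 Wald test called it there (adjusted p 0.0418). Within the first range the log2 fold change of Tfpi was -0.41 (edgeR p 0.0434). Hist1h4i, a histone H4 gene, was at 4.25 to 8.38 CPM in WT and 3.34 to 4.58 CPM in KO (log2 fold change -0.56, SE 0.14). Near-identical histone and ribosomal copies can share reads, which makes Hist1h4i and Rps4l, a copy of a ribosomal protein gene (log2 fold change -0.49), uncertain.

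Gadd45gip1, a protein of the mitochondrial ribosome, was at 14.4 to 26.996 CPM in WT and 10.8 to 13.5 CPM in KO, without overlap (log2 fold change -0.48, SE 0.13). Its highest library was d3_WT_381, and within the first range the log2 fold change was -0.31 (edgeR p 0.00963). Ube2v2, a ubiquitin-conjugating enzyme variant that acts in DNA damage tolerance, was at 6.99 to 8.88 CPM in WT and 5.50 to 6.87 CPM in KO, also without overlap (log2 fold change -0.31). Gyg, glycogenin, the protein primer of glycogen synthesis, was at 23.0 to 30.4 CPM in WT and 18.6 to 25.7 CPM in KO (log2 fold change -0.26, SE 0.08). The other 5 were Creg1, a lysosomal glycoprotein, Rnaseh2a, the catalytic subunit of ribonuclease H2, Rpp30, a subunit of ribonuclease P, Lyplal1, a lysophospholipase-like enzyme, and 1810044D09Rik, at log2 fold changes of -0.76 to -0.28. Exons of Rnaseh2a overlap Prdx2, and those of Recql5, Synj1 and Hk1 overlap Myo15b and Sap30bp, 4930404I05Rik and Hk1os in that order, each on the opposite strand. The counts of these genes and of Gadd45gip1 are uncertain in the same way as that of Ciapin1. With all 15 libraries the rule added Syne3, a nuclear envelope spectrin-repeat protein (log2 fold change 0.78).

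The direction of all 24 genes was the same with the number range as a term, where 9 of the 12 higher and 12 of the 12 lower genes had an unadjusted p under 0.05, the background being 1647 genes (10.7%). Within the first range all 24 also had the same direction, with 3 higher and 2 lower genes at an unadjusted p under 0.05, and the median of the higher genes dropped from 0.37 to 0.14. Since the 24 were picked by their p in these libraries, these counts describe them and do not support them.

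**Figure D2:**
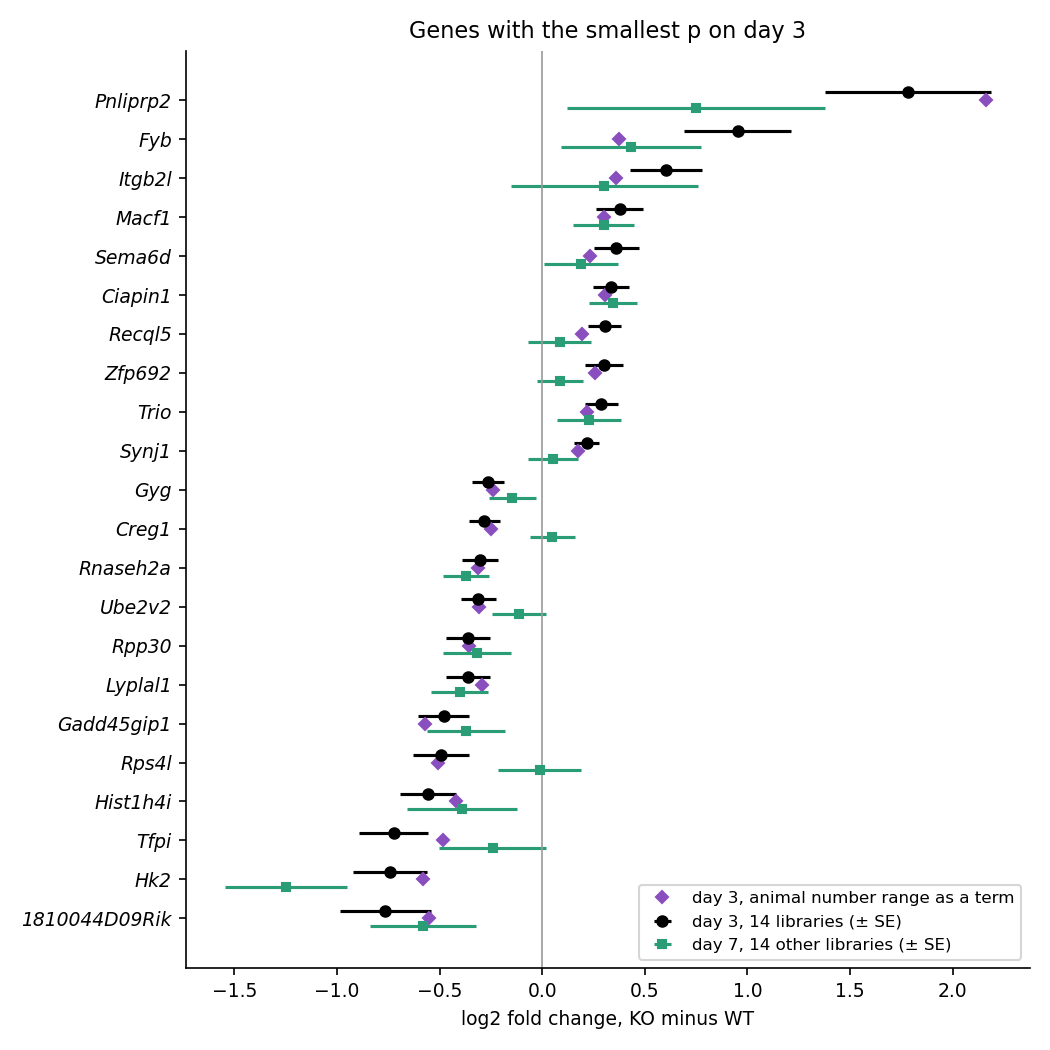
Log2 fold change of KO minus WT (horizontal axis) of most of the genes with the smallest p on day 3, without Tdpx-ps1 (4.79). Black circles are day 3 with 14 libraries and bars are ± SE, purple diamonds are day 3 with the animal number range as a term, and green squares are the 14 libraries of day 7 with ± SE. Hk2 is at -0.74 on day 3 and at -1.25 on day 7.

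In 9 genes (0.0586%), the 7 KO and the 7 WT libraries did not overlap. Random labels would separate 7 from 7 libraries fully in a gene with a probability of 0.000583, which is near this share. The count is therefore no result about these genes. Tdpx-ps1 and Clcn3, an endosomal chloride and proton exchanger, were higher (0.013%), and Gadd45gip1, Ube2v2, Cops2, Rad1, Rpusd4, Rtbdn and Tasp1 were lower (0.0456%). Apart from Tdpx-ps1, Gadd45gip1 and Ube2v2 they are named because of these values. Most of these differences were small. Clcn3 was at 101 to 109.2 CPM in WT and 109.3 to 117 CPM in KO, a log2 fold change of 0.09. Cops2, a subunit of the COP9 signalosome, was at 81.0 to 89.8 CPM in WT and 70.6 to 80.5 CPM in KO (log2 fold change -0.15). Rtbdn, retbindin, was at 0.257 to 0.365 CPM in WT and 0.115 to 0.250 CPM in KO (log2 fold change -0.95, SE 0.21, edgeR p 0.000392), levels close to the counting floor.

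A further gene was called once the number range was a term in the model. Cep85, a centrosomal protein, was at 48.7 to 60.1 CPM in the 4 WT libraries of the first range and at 29.6, 25.6 and 28.6 CPM in d3_KO_349, d3_KO_350 and d3_KO_351. In the second range the KO libraries were at 43.8 to 66.7 CPM and d3_WT_381 at 99.2 CPM. The library labelled d3_KO_345 had 44.8 CPM, and d3_WT_486 and d3_WT_487 had 53.2 and 38.5 CPM. KO libraries were thus below the WT libraries of the same range in both ranges that hold both genotypes, while the groups overlapped as a whole. In the second range this rests on d3_WT_381 alone, the library that stood apart. The log2 fold change of Cep85 was -0.91 with the range as a term (edgeR adjusted p 0.00922) and -0.42 without the term (edgeR adjusted p 0.77). Within the first range it was -0.94 (edgeR p 4.8e-06, edgeR adjusted p 0.0754), so the gene was not called there. On day 7 it was -0.54 (edgeR p 0.0315).

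The other hexokinases are described next, since they act on the same substrate as Hk2. Hk1, the widely expressed form, was at 212 to 304 CPM in WT, 217 to 313 CPM in the 7 KO libraries and 344 CPM in the library labelled d3_KO_345 (log2 fold change 0.14, SE 0.10, edgeR p 0.178). Hkdc1, a hexokinase domain protein of intestinal epithelium, was at 26.1 to 70.9 CPM in WT and 26.8 to 61.3 CPM in KO. Hk3, the form of myeloid cells, was at 0.0573 to 0.146 CPM in WT, 0.0766 to 0.322 CPM in KO and 1.58 CPM in the library labelled d3_KO_345. In each of these the groups overlapped.

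Gene lists of pathways and cell types are given by the number of members tested and by the median log2 fold change, beside 48.8% of all 15366 genes above 0, 51.2% below 0 and a median of -0.0043 (14 libraries). Of all these genes, 6.06% had an unadjusted p under 0.05 in edgeR, 2.58% higher and 3.48% lower. Of 27 genes of glycolysis and lactate, 20 were above 0, the median was 0.03 and 1 had an unadjusted p under 0.05. That gene was Pfkfb3, which makes the activator of phosphofructokinase. Pfkfb3 was at 1.40 to 2.79 CPM in WT, 2.40 to 3.41 CPM in KO and 8.50 CPM in the library labelled d3_KO_345. Its log2 fold change was 0.43 (edgeR p 0.0173), and 0.14 within the first range (edgeR p 0.563). Of 32 genes of pyruvate oxidation and the citrate cycle, 19 were below 0 with a median of -0.03, and the gene with the smallest p was Idh2, the mitochondrial isocitrate dehydrogenase. Idh2 was at 131 to 151 CPM in WT and 107 to 141 CPM in KO, a log2 fold change of -0.17 (edgeR p 0.0352), with 107 to 121 CPM in the 4 KO libraries of the second range. In the pentose phosphate and glycogen list the median was 0.03 over 17 genes, 10 of them above 0.

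Genes of oxidative phosphorylation encoded in the nucleus were on the lower side almost throughout, and this turned on d3_WT_381. Of 73 genes, 70 were below 0, the median was -0.16 and 1 had an unadjusted p under 0.05. The mean log2 CPM of the list was 7.95 in d3_WT_381, 6.85 to 7.15 in the other 6 WT libraries and 6.84 to 7.23 in the 7 KO libraries. Without d3_WT_381 the median was 0.0088. Atp5e, a subunit of ATP synthase, had 432 CPM in that library, 117 to 174 CPM in the other WT libraries and 114 to 145 CPM in KO (log2 fold change -0.51, edgeR p 0.0574). Ndufa1, a subunit of complex I, had 155 CPM there, 80.6 to 96.6 CPM in the other WT libraries and 75.98 to 91.0 CPM in KO (log2 fold change -0.26, edgeR p 0.0476). Within the first range, which leaves d3_WT_381 out, Atp5e and Ndufa1 were both at -0.03.

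The series title links hexokinase 2 to mitochondria and cell death, so both were examined. In the list of the permeability transition pore and the voltage-dependent anion channels, 9 of 13 genes were below 0, the median was -0.04 and none had an unadjusted p under 0.05 in edgeR, against 6.06% of all genes. Vdac3, a channel of the outer mitochondrial membrane, had a log2 fold change of -0.16 (edgeR p 0.147), with its highest value of 215 CPM in d3_WT_381. Of 43 cell death genes, 27 were above 0 with a median of 0.03. In each direction 1 gene had an unadjusted p under 0.05, beside 2.58% higher and 3.48% lower of all genes. Slc7a11, the cystine transporter that protects from ferroptosis, was at 1.59 to 2.58 CPM in WT, 2.14 to 3.49 CPM in KO and 5.34 CPM in the library labelled d3_KO_345 (log2 fold change 0.39, edgeR p 0.0214). Casp12, an inflammatory caspase, was at 1.42 to 4.81 CPM in WT and 1.14 to 2.14 CPM in KO (log2 fold change -0.52, edgeR p 0.0426), and again d3_WT_381 was the highest.

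**Figure D3:**
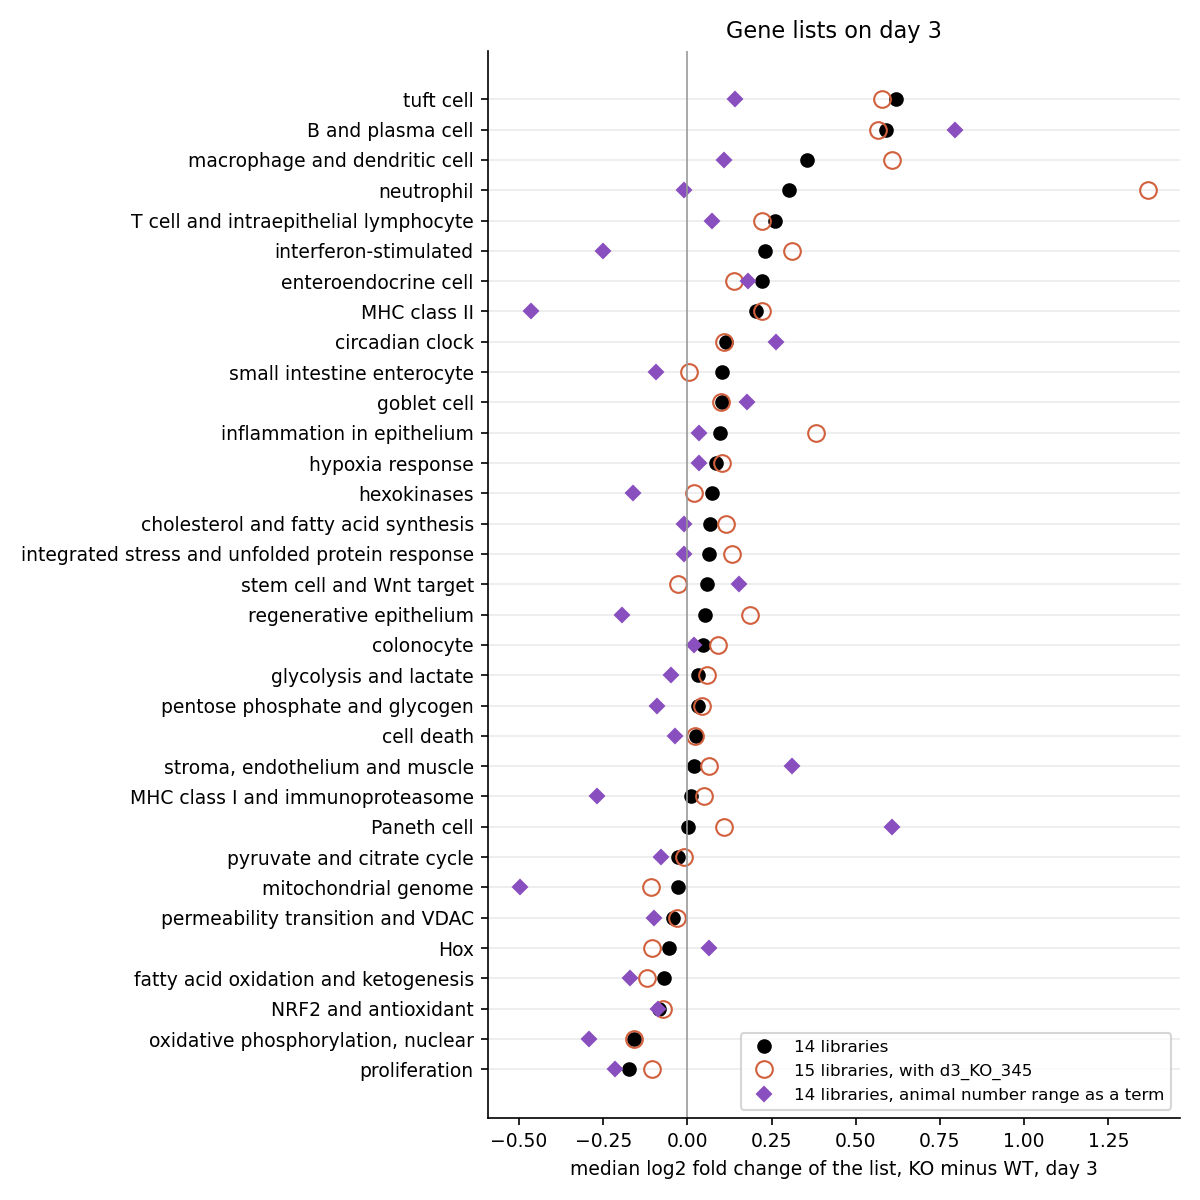
Median log2 fold change of KO minus WT on day 3 (horizontal axis) of 33 gene lists. Black circles are 14 libraries, open orange circles are all 15 libraries with the one labelled d3_KO_345, and purple diamonds are 14 libraries with the animal number range as a term. The tuft cell list drops from 0.62 to 0.14 with that term, and the neutrophil list is at 0.30 in 14 libraries and 1.37 in 15.

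Inflammation genes depended on the library labelled d3_KO_345. Of 25 genes of epithelial inflammation tested in 14 libraries, 15 were above 0 with a median of 0.10. With that library the median over 26 genes was 0.38. At an unadjusted p under 0.05, 6 were higher and 1 lower, beside 3.52% and 4.35% of all genes. The mean log2 CPM of the list was 5.08 in it, 2.83 to 3.57 in WT and 2.84 to 3.68 in the other KO libraries. Il1b, the cytokine interleukin 1 beta, was at 0.630 to 3.32 CPM in WT (median 2.23 CPM), 2.83 to 6.34 CPM in the 7 KO libraries (median 3.09 CPM) and 51.3 CPM in d3_KO_345. Its log2 fold change was 0.76 (SE 0.29, edgeR p 0.02) without that library and 2.12 (edgeR p 0.0062) with it, and 0.22 within the first range without it (edgeR p 0.362). Cxcl2, a neutrophil chemoattractant chosen after its values were seen, had 46.7 CPM in d3_KO_345 and 0.376 to 2.55 CPM in the other 14 libraries.

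Among the lists of white blood cells, those of macrophages and dendritic cells and of neutrophils were also higher with the library labelled d3_KO_345. The medians of the T cell and B cell lists were 0.22 and 0.56 with it and 0.26 and 0.59 without it. In the macrophage and dendritic cell list 19 of 22 genes were above 0 with a median of 0.36 (14 libraries). At an unadjusted p under 0.05, 5 were higher, beside 2.58% of all genes. With d3_KO_345 the median was 0.61. Without it, the median was 0.11 with the number range as a term and -0.11 within the first range, so the direction was not kept. The mean log2 CPM of the list was 0.432 to 1.34 in WT, 0.963 to 1.79 in the 7 KO libraries and 2.70 in d3_KO_345, with the 4 KO libraries of the second range at 1.31 to 1.79. Csf1r, the receptor for the macrophage growth factor, was at 0.516 to 2.21 CPM in WT, 1.46 to 3.93 CPM in KO and 9.50 CPM in d3_KO_345. Its log2 fold change was 0.89 (SE 0.30, edgeR p 0.00873), and 0.02 within the first range (edgeR p 0.929). Ccr7, the homing receptor of mature dendritic cells and T cells, differed in this respect. Ccr7 was at 0.115 to 0.362 CPM in WT and 0.212 to 0.665 CPM in KO (log2 fold change 0.99, SE 0.28, edgeR p 0.00286), and within the first range it was 1.09 (edgeR p 0.00847).

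Of 20 neutrophil markers, 5 were tested without d3_KO_345, with a median of 0.30, and 6 with it, with a median of 1.37. Ly6g, a surface antigen of neutrophils, was at 8.14 to 44.3 CPM in WT, 13.9 to 55.4 CPM in the 7 KO libraries and 114 CPM in d3_KO_345. Csf3r, the granulocyte growth factor receptor, was at 0 to 0.365 CPM in WT, 0.0833 to 0.845 CPM in the 7 KO libraries and 9.67 CPM in d3_KO_345. In the T cell and intraepithelial lymphocyte list 32 of 35 genes were above 0 with a median of 0.26, and 1 had an unadjusted p under 0.05. The mean log2 CPM of that list was lowest in d3_WT_487 (-1.33) and d3_WT_486 (0.0812), without d3_WT_487 the median was 0.08 and without d3_WT_353 0.45, and with the number range as a term it was 0.07. In the B and plasma cell list only 6 of 20 genes were tested, with 5 above 0 and a median of 0.59. Igha, the constant region of immunoglobulin A, was at 1.37 to 4.21 CPM in WT and 1.37 to 11.1 CPM in KO (log2 fold change 0.86, edgeR p 0.0446), and Jchain, which joins its units, at 0.159 to 1.17 CPM and 0.459 to 3.21 CPM (log2 fold change 1.02, edgeR p 0.0514). Both were highest in d3_KO_350, without which the median of the list was 0.35. The median was 0.79 with the number range as a term and 1.03 within the first range, both with d3_KO_350 included. With the term, Igha was at 1.38 (edgeR p 0.0061) and Jchain at 1.87 (edgeR p 0.0027). With the mean of the T cell, B cell, macrophage and neutrophil lists as a term, the inflammation list had a median of 0.12 (14 libraries) and -0.21 (15). Il1b was then at 0.58 and -0.0047. Over all genes, 173 (14 libraries) and 226 (15) had an unadjusted edgeR p under 0.05, against 931 and 1218 without the term. The term is made from the same mixed libraries, so it cannot assign RNA to a cell type. The cause of the inflammation values was not tested.

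Interferon-stimulated genes were above 0 in 33 of 35 cases with a median of 0.23, but 1 had an unadjusted p under 0.05 and the number range moved with them. The mean log2 CPM of the list was 3.57 to 4.05 in the 4 KO libraries of the second range and 3.88 in d3_WT_381, the WT library of the same range. It was 2.73 to 2.77 in the 3 KO libraries and 2.74 to 3.39 in the 4 WT libraries of the first range, and 4.11 in d3_KO_345. With the range as a term the median was -0.25, and within the first range it was -0.34, so the direction was not kept. Without d3_KO_392 or d3_KO_388 it was 0.096 and 0.11. Between the ranges, 24 of the 35 genes were called as higher in the second range and none as lower, beside 9.92% and 7.33% of all genes. Mx1, an antiviral GTPase, was at 3.28 to 5.71 CPM in WT and 4.08 to 10.0 CPM in KO (log2 fold change 0.57, edgeR p 0.0123) and had 0.33 with the range as a term (edgeR p 0.16). MHC class II genes, which present antigen to helper T cells, had 9 of 9 members above 0 with a median of 0.20. The median was -0.46 with the range as a term, -0.06 within the first range and -0.05 without d3_KO_392. In the second range that term has d3_WT_381 as its only WT library, and its mean log2 CPM of the list (2.80) was the highest in WT. Of 22 genes of MHC class I and the immunoproteasome the median was 0.01, and H2-M3, a nonclassical class I gene, was at 5.49 to 7.91 CPM in WT and 5.10 to 5.89 CPM in KO (log2 fold change -0.27, edgeR p 0.0127).

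Among epithelial cell types, tuft cell genes had the largest median, 0.62, with 16 of 18 above 0. At an unadjusted p under 0.05, 3 were higher, beside 2.58% of all genes. Tuft cells are chemosensory cells that answer to parasites and microbial metabolites. Within the first range, the list had like levels in both genotypes. Its mean log2 CPM was 0.531 to 1.14 in the 8 libraries of the first range, WT and KO alike, 2.21 to 2.55 in the 5 libraries of the second range, d3_WT_381 included at 2.24, and 1.59 and 1.62 in d3_WT_487 and d3_WT_486. Dclk1, a kinase that marks tuft cells, chosen after its values were seen, was at 2.30 to 4.27 CPM in the first range of numbers, 15.8 CPM in d3_WT_381, 21.3 to 32.8 CPM in the 4 KO libraries of the second range, and 10.1 and 11.1 CPM in the last. Between the first 2 ranges Dclk1 differed by 2.78 on the log2 scale (edgeR adjusted p 4.73e-06). Of the 18 genes, 16 were called as higher in the second range and 1 as lower, beside 9.92% and 7.33% of all genes. The genotype difference of Dclk1 was 1.28 without the range (edgeR p 0.0534) and 0.35 with it (edgeR p 0.0799). Trpm5, the cation channel of taste signalling in these cells, likewise went from 0.75 to 0.19, and the median of the list was 0.14 with the range as a term and 0.17 within the first range. The rule also named Il17rb, a receptor for interleukin 25 (log2 fold change 0.46, edgeR p 0.0163), and Chat, which makes acetylcholine (0.67, edgeR p 0.0184), at 0.22 and 0.37 with the term.

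**Figure D4:**
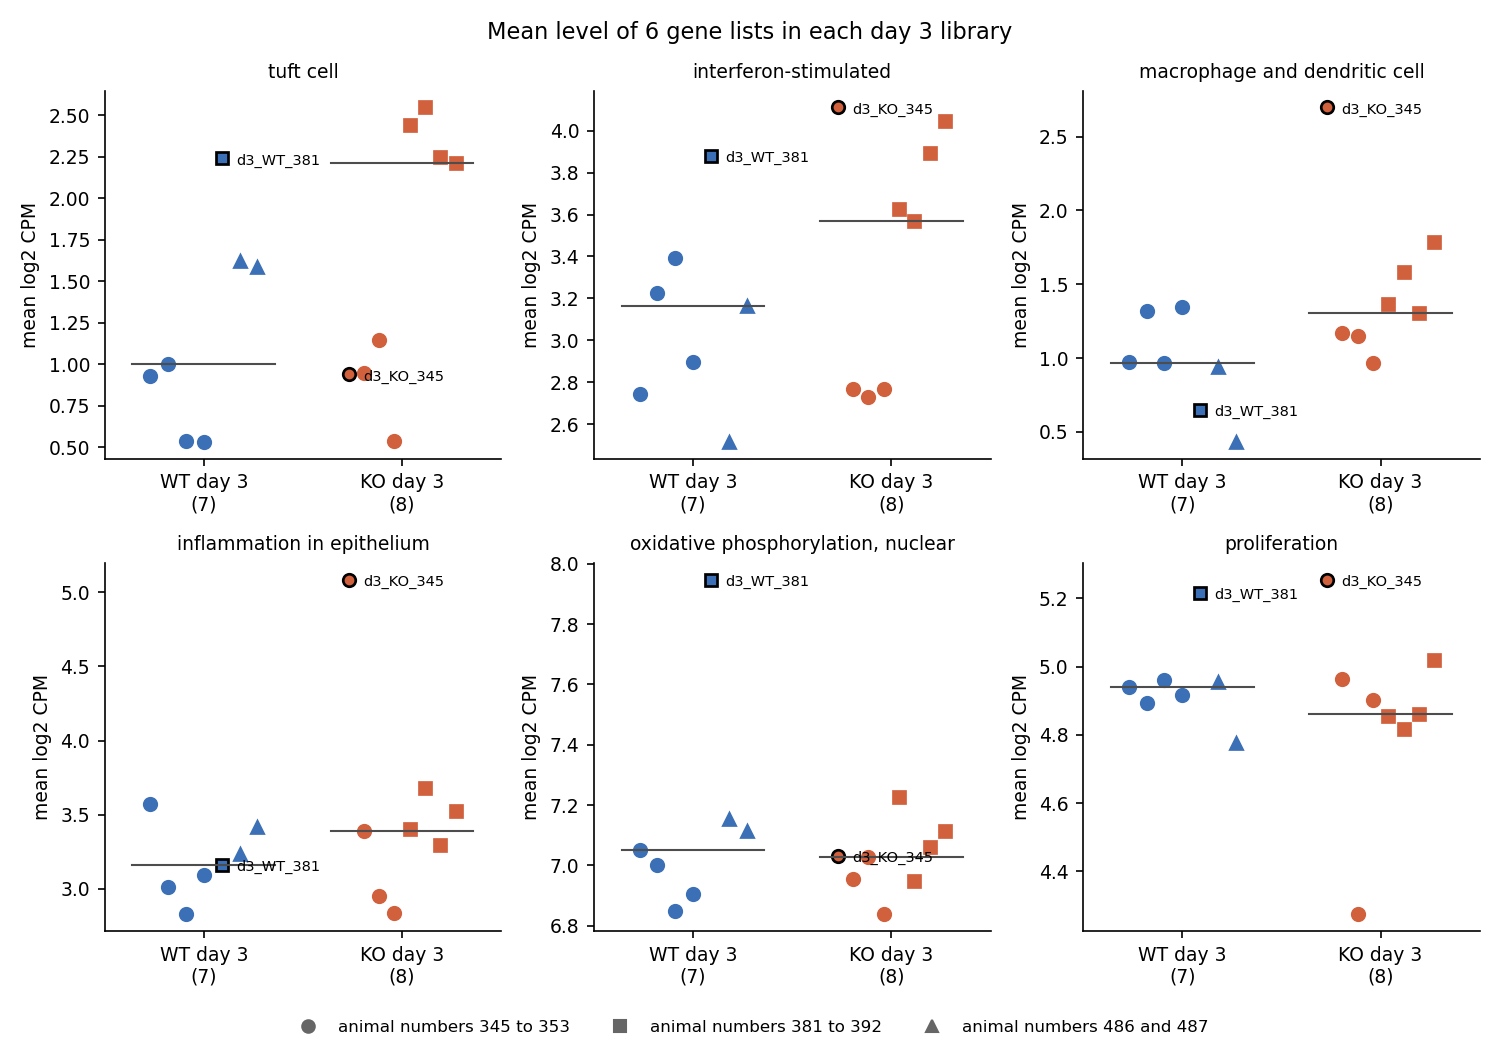
Mean log2 CPM (vertical axis) of 6 gene lists in each day 3 library, WT in blue and KO in orange, with marker shapes for the animal number range, a line for the group median without d3_KO_345 and outlines for d3_KO_345 and d3_WT_381. Tuft cell genes split by number range in both genotypes, d3_KO_345 is highest in inflammation (5.08) and d3_WT_381 in oxidative phosphorylation (7.95).

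Fewer enteroendocrine genes, of the hormone-producing cells, went with the ranges. Of 21 genes, 3 were called as higher in the second range and none as lower, beside 9.92% and 7.33% of all genes. For the genotypes, of 21 genes, 14 were above 0 with a median of 0.22, and 5 were higher at an unadjusted p under 0.05, beside 2.58% of all genes. Pax4, a transcription factor of the endocrine lineage, was at 0.459 to 0.728 CPM in WT (median 0.596 CPM) and 0.689 to 1.23 CPM in KO (median 0.829 CPM). Its log2 fold change was 0.66 (SE 0.17, edgeR p 0.00176) without the range, 0.76 with it (edgeR p 0.00253) and 0.71 within the first range (edgeR p 0.0147). Insm1, a zinc finger factor of the same lineage, was at 1.95 to 4.205 CPM in WT and 3.40 to 4.72 CPM in KO (log2 fold change 0.40, edgeR p 0.0178). The median of the list was 0.18 with the range as a term, 0.01 within the first range and 0.13 without d3_KO_387.

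Goblet cell genes had a median of 0.10 over 20 genes. At an unadjusted p under 0.05, 4 were higher and 1 lower, beside 2.58% and 3.48% of all genes. Among the higher ones were Retnlb and Ang4, both secreted defence proteins. They are given with Itln1, a member of the Paneth cell list. Retnlb, resistin-like molecule beta, was at 27.2 to 100.2 CPM in WT and 38.3 to 260.0 CPM in KO (log2 fold change 1.11, SE 0.40, edgeR p 0.0144). Ang4, an antimicrobial ribonuclease, was at 5.67 to 93.3 CPM in WT and 12.2 to 489 CPM in KO (log2 fold change 2.10, edgeR p 0.038). Itln1, a lectin that binds microbial sugars, was at 0.774 to 3.04 CPM in WT and 0.330 to 18.6 CPM in KO (log2 fold change 2.10, edgeR p 0.0157). The 3 genes were highest in d3_KO_349, d3_KO_350 and d3_KO_392, at 260.0, 228 and 154.5 CPM for Retnlb, 297, 489 and 185.5 CPM for Ang4, and 17.9, 18.6 and 5.67 CPM for Itln1. For Retnlb the other 4 KO libraries lay at 38.3 to 103 CPM, so the groups overlapped. Without d3_KO_387 the median of the list was -0.0051.

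Without d3_KO_345, most cell cycle genes were below 0 in KO. Of 38 proliferation genes, 27 were below 0 with a median of -0.17, and 7 were lower at an unadjusted p under 0.05, beside 3.48% of all genes. With d3_KO_345 included 2 were lower and 1 higher, beside 4.35% and 3.52% of all genes. Ube2c, which promotes exit from mitosis, was at 27.6 to 52.8 CPM in WT, 16.9 to 34.7 CPM in the 7 KO libraries and 47.0 CPM in d3_KO_345 (log2 fold change -0.41, SE 0.15, edgeR p 0.0128), and with that library included the edgeR p was 0.103. Nusap1, a protein of the mitotic spindle, was at 23.5 to 39.4 CPM in WT and 14.1 to 29.5 CPM in KO (log2 fold change -0.46, SE 0.17, edgeR p 0.0141). Library d3_KO_350 was lowest in both, and its mean over the list was 4.27 against 4.82 to 5.02 in the other 6 KO libraries and 4.77 to 5.22 in WT. The median was -0.09 without d3_KO_350, -0.11 with d3_KO_345 included, -0.21 with the number range as a term and -0.24 within the first range. The list of stem cell and Wnt target genes had a median of 0.06 over 23 genes and none at an unadjusted p under 0.05 in edgeR.

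Medians of the remaining lists were 0.11 for the circadian clock (16 of 18 above 0), 0.10 for small intestine enterocytes, 0.08 for the hypoxia response, 0.07 for cholesterol and fatty acid synthesis, 0.06 for the integrated stress and unfolded protein response, 0.05 for colonocytes and for regenerative epithelium, 0.02 for stroma, endothelium and muscle, 0.0024 for 4 Paneth cell genes, -0.05 for the Hox genes, and -0.07 for fatty acid oxidation and ketogenesis. In the hypoxia list, Bnip3l, a mitophagy receptor, was at 50.6 to 76.2 CPM in WT and 44.7 to 55.2 CPM in KO (log2 fold change -0.26, edgeR p 0.0161), and within the first range its log2 fold change was -0.06 (edgeR p 0.406). In the list of the antioxidant factor NRF2, with a median of -0.08, Gsta3, a glutathione transferase, was at 16.8 to 29.6 CPM in WT and 12.5 to 21.6 CPM in KO (log2 fold change -0.41, edgeR p 0.0202), and within the first range it was -0.14 (edgeR p 0.499). The median of the mitochondrial genome list depended on the setting: it was -0.03 over 11 genes, 0.67 without d3_WT_381 and -0.50 with the number range as a term. Of all 33 lists, 13 changed the sign of their median when the number range was a term.

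Finally, the day 3 difference was set beside that of day 7, which rests on 14 other animals. The day 7 values take no account of animal numbers. Library d7_WT_386, numbered within the second range, had the lowest total of day 7 (25.2 M) and 26.6% of counts on the mitochondrial genome. Nuclear oxidative phosphorylation genes were below 0 in 73 of 73 cases on day 7, with a median of -0.24. The part of d7_WT_386 and d3_WT_381 in the likeness of the days was not tested. Day 7 had 1 called gene of 15584 (0.00642%), again Tdpx-ps1, and 2017 at an unadjusted p under 0.05 (12.9%). All 12 of the higher day 3 genes were above 0 on day 7, where 49.1% of all genes were, and 11 of the 12 lower genes were below 0, where 50.9% were. Of these, 3 higher and 4 lower genes had an unadjusted day 7 p under 0.05. Among them were Tdpx-ps1 (log2 fold change 4.96) and Ciapin1 (0.34), and Hk2 (-1.25), 1810044D09Rik (-0.58), Lyplal1 (-0.40) and Rnaseh2a (-0.37). Creg1 was the exception, at -0.28 on day 3 and 0.05 on day 7. The median of the 12 higher genes was 0.37 on day 3 and 0.30 on day 7, and that of the 12 lower genes -0.42 and -0.34. Across 14978 genes, the day 3 and day 7 fold changes had a Pearson r of 0.417 and a Spearman coefficient of 0.528, a description only, since genes of a library are not replicates. A test of the change in the genotype difference between the days called 0 of 16331 genes in edgeR (0%) and 0 in DESeq2, with 408 at an unadjusted edgeR p under 0.05 (2.5%). With all 29 libraries 0 of 16371 (0%) were called by either, with 440 at an unadjusted edgeR p under 0.05 (2.69%). From day 3 to day 7 the log2 fold change differed by -0.51 for Hk2 (SE 0.36, edgeR p 0.169) and by 0.19 for Tdpx-ps1 (SE 0.67, edgeR p 0.782).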

How the data were processed

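RNA of 15 day 3 libraries was analysed from the counts that the authors deposited, whole numbers of read pairs per gene and lane, neither normalised nor filtered. They were made with featureCounts 1.6.2 without regard to strand per the file headers, whereas the submitters' processing notes name version 1.5.2, with STAR, Trim Galore and the build GRCm38. The labels name a stranded kit and pairs of 50 bases. Coordinates are those of the files, and gene types come from GENCODE M21. The 2 lanes of a library were summed. Total counts were 26.7 to 50.1 M, and intervals and floors of 3 counts cover counting error only.

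KO was compared with WT by the edgeR 4.0.16 quasi-likelihood test (R 4.3.3, TMM scaling, expression filter by group), with p adjusted by the Benjamini-Hochberg method over all genes tested and genes called under 0.05. The library labelled d3_KO_345 was left out or kept, as stated. Standard errors were derived from each gene's F statistic. List means are of log2 CPM with a prior count of 2. Alternatives were DESeq2 1.42.0 size factors, the DESeq2 Wald test, other filters on low counts, robust dispersions, lane 1 alone, a fit to the 38 libraries together, covariates for immune genes, small intestine genes and the animal number range, the first number range alone, a minimum change, and leaving out each replicate. The procedure was tested on simulated counts.

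The libraries, lists and named genes were chosen with earlier results of these data known. Named genes were Hk2, called genes, the 12 genes with the smallest p in each direction (14 libraries) and 5 (15 libraries) at a mean log2 CPM of at least 0, and the 2 members of each list with the smallest p. A few of the genes this rule names are not reported here. Cep85 was called under an alternative. Prdx2, Cxcl2, Csf3r, Dclk1, Trpm5, the other hexokinases, the marker genes and the genes without overlap were added after their values were seen.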

Additional observations from a re-analysis of the deposited data

Results flagged for a closer look

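Single libraries far from the rest of their group were looked for in 196 groups of values, each a gene or a list mean in the 8 KO or 7 WT libraries of day 3, and 26 (13.3%) held one. Chance alone flags about 1 in 20 such groups, and the groups are not independent, since they share libraries. All values here are log2 CPM, and those of lists are means over their members. The library labelled d3_KO_345 accounted for 10 of the 26. It was the highest KO library for Hk2 (8.788), Hk3 (0.7065), Pfkfb3 (3.102), Il1b (5.69), and the means of inflammation (5.083), macrophage and dendritic cell (2.699) and regenerative epithelium genes (5.31), and the lowest for Tdpx-ps1 (-3.488), Zfp692 (3.843) and the mean of Hox genes (1.844).

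Library d3_WT_381 accounted for 12. It was the highest WT library for Gadd45gip1 (4.721), Prdx2 (8.135), Ndufa1 (7.244), Atp5e (8.72) and Vdac3 (7.711), and for the means of the citrate cycle (7.252), oxidative phosphorylation (7.947), permeability transition (7.733), cell death (5.61), MHC class I (6.184), small intestine enterocyte (3.446) and proliferation genes (5.217). This library also had the lowest total and the highest mitochondrial share, whose part in these values was not tested.

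The remaining 4 were single cases. Synj1 was highest in d3_KO_385 (5.675), and Itgb2l was lowest in d3_WT_486 (0.1219). The mean of proliferation genes was lowest in d3_KO_350 (4.274), and that of NRF2 genes in d3_KO_351 (6.532).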

How the results depend on the processing

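Of the counts of called genes, that of the 14 libraries was 1 in the main test and 2 by the DESeq2 Wald test, 2 with the animal number range as a term and 0 within the first range. That of the 15 libraries was 1, and it was 2 by the DESeq2 Wald test, 0 with a mean CPM of at least 1 as the filter, 0 with the number range as a term and 0 within the first range. Leaving out each of the 15 libraries gave 0 to 1, with 1 only without d3_KO_345. Tdpx-ps1 did not pass the expression filter when any other KO library was left out. Leaving out each of the 14 libraries gave 1 throughout. Hk2 was -0.27 with all 15 libraries, and within the first range with d3_KO_345 included its direction reversed (0.19). Other reversals were those of Zfp692 within the first range (-0.027, 15 libraries), Il1b with an immune score as covariate (-0.0047, 15 libraries), Hk1 within the first range (-0.051, 14 libraries) and Atp5e with the immune score (0.0028, 14 libraries). The cause was not tested. The change of the genotype difference between the days had 0 calls under every alternative run. No paired analysis was possible because the groups share no animal number. Depth limits what can be said of genes near 3 counts per library, such as Tdpx-ps1 in WT.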
